A study of Mus musculus with 30 samples.

Results

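Hepcidin and the genes through which the liver senses, takes up and releases iron were followed in livers lacking CREB3L3, PPARα or both. The 9 genes were Hamp, Hamp2, Bmp6, Smad7, Id1, Tfr2, Tfrc, Slc40a1 and Trf. They were taken from the genes whose array probe set carries that symbol alone. Each of the 9 had 1 such probe set, out of 18820 genes with a probe set of a single symbol and 35556 probe sets in all, and no probe set with several symbols named any of them.

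Gene expression was profiled on 30 Affymetrix Mouse Gene 1.1 ST arrays, 1 per liver, and the values are log2 intensities after Robust Multichip Averaging (RMA). The mice were males of about 8 weeks. The 4 genotypes were CREB3L3-/-, PPARα-/-, PPARα/CREB3L3-/- and wild-type (WT), on a C57BL/6 background after at least 10 generations of backcrossing. Both knockouts affect the whole body, and the combined line was bred from the single lines. Each genotype was studied after 4 days of ketogenic diet with free access to food or after a 16 h fast, so the diet and the fed state cannot be told apart. There were 4 livers per group, and 3 in each PPARα-/- group. CREB3L3 is a transcription factor of the endoplasmic reticulum membrane and PPARα is a nuclear receptor for fatty acids. CREB3L3 is known as an activator of the hepcidin gene, which is the question behind following these genes.

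Hepcidin is a peptide hormone that hepatocytes release when iron or inflammation rises. It binds ferroportin, the only known iron exporter of mammalian cells, and has it degraded, so that iron stays in macrophages, enterocytes and hepatocytes. The hepcidin gene is switched on by bone morphogenetic proteins (BMPs) from sinusoidal endothelium through SMAD proteins, with transferrin receptor 2 as an iron sensor, and by interleukin-6 through STAT3.

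The mouse carries a pair of hepcidin genes side by side on chromosome 7. Hamp (probe set 10562169; 30942368 to 30944029) encodes the iron-regulating hormone, and Hamp2 (probe set 10562166; 30922372 to 30924181) is its close copy, for which no iron-regulating activity is known in mice. The RefSeq sequence before each start (GRCm38.p6, minus strand, 250 bases, 5′ to 3′) is shown for both copies. No link between these sequences and the array values was tested. Capitals mark GGCGCC, the core of the BMP-responsive element, and TTCNNNGAA, the STAT element. Hamp spans chr7:30944030-30944279 and Hamp2 spans chr7:30924182-30924431.
Hamp: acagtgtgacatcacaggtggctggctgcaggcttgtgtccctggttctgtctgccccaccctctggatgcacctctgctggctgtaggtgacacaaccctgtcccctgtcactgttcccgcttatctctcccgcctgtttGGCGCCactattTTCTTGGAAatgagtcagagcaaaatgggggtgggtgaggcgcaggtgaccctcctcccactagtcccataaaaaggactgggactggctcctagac
Hamp2: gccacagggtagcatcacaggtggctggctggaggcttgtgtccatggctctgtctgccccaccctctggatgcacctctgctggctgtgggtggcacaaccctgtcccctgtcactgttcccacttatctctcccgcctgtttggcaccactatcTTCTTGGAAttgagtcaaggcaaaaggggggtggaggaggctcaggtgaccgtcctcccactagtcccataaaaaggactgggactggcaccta

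Over windows that also take in 50 bases after the start, 276 of 297 aligned bases were identical (92.9%). Counted from 1 at the 5′ end of the Hamp window, the difference G145A falls in GGCGCC, so that Hamp2 lacks this match. Both windows hold 1 match to TTCNNNGAA, and neither holds an exact TGACG, the core of the cAMP response element. Near matches were not searched. At the differences G8A and A9G, Hamp reads tgacatca and Hamp2 reads tagcatca. Neither stretch was searched in other promoters, and no role of either was tested. Searched on both strands, GGCGCC was found in 11.9% of all 32851 RefSeq promoter windows of the same length, TTCNNNGAA in 8.3% and TGACG in 20.8%, and the matches in Hamp did not overlap. Windows were at hand for 5 of the 9 genes. Relative to the start, 1 Tfrc window held GGCGCC at -89 and TGACG at 14, and its other window held TGACG. For Tfr2, 1 window held TGACG at -41. The Bmp6 window held no match, and TTCNNNGAA was found in no Tfr2 or Tfrc window.

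The arrays were alike in quality. The array medians lay between 4.22 and 4.38 and arrays of a group correlated at 0.978 to 0.990. Creb3l3 read 4.29 to 5.36 in the 16 livers without CREB3L3, against 10.4 to 11.3 in WT livers. In PPARα-/- livers Creb3l3 read 9.49 to 9.95 on the ketogenic diet and 10.52 to 10.69 after the fast. These values lay below WT, at 10.42 to 10.48 and 10.97 to 11.28. The Ppara probe set was lower but far from lost in PPARα-/- livers, at 7.22 to 7.95 on the ketogenic diet and 8.96 to 9.35 after the fast, and read 6.62 to 7.62 and 7.25 to 9.09 in PPARα/CREB3L3-/- livers, against 10.4 to 10.5 and 10.1 to 10.4 in WT livers. It read 8.01 to 8.99 in ketogenic and 9.51 to 10.03 in fasted CREB3L3-/- livers, also below WT of the same regimen. Which part of Ppara its probes cover relative to the deletion was not tested. In ketogenic CREB3L3-/- livers 5 of 8 hepatocyte markers were lower than in WT (summed level 15.1 to 15.5, against 15.7 to 15.8 in WT) and all 7 measured markers of cell division were higher (summed level 10.5 to 11.8, against 6.34 to 7.84 in WT). In the same livers 5 of 8 stellate cell markers were higher and 1 lower (median 0.92; summed level 11.6 to 11.9, against 11.4 to 11.5 in WT), and 2 of 8 Kupffer cell and macrophage markers were higher and 0 lower (median 0.50; summed level 12.1 to 12.3, against 11.3 to 11.9 in WT). Of all probe sets 12.8% were higher and 8.56% lower in ketogenic CREB3L3-/- livers than in WT. In bulk liver, fewer cells of a type and less RNA per cell cannot be told apart.

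Loss of CREB3L3 was not accompanied by a detectable fall of Hamp in either regimen. On the ketogenic diet Hamp read 12.05, 11.60, 11.93 and 12.27 in CREB3L3-/- livers, against 11.64, 12.29, 11.80 and 12.49 in WT livers. After the fast it read 11.98, 11.76, 11.75 and 11.19 in CREB3L3-/- livers, against 11.92, 10.42, 11.57 and 10.78 in WT livers. The groups overlapped in both regimens. The log2 difference from WT was -0.09 on the ketogenic diet (SE 0.28, 95% interval -0.66 to 0.48, adjusted p = 0.847) and 0.50 after the fast (SE 0.28, 95% interval -0.07 to 1.07, adjusted p = 0.515). The fasted difference lay between 0.25 and 0.75 when 1 array was left out.

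**Figure D1:**
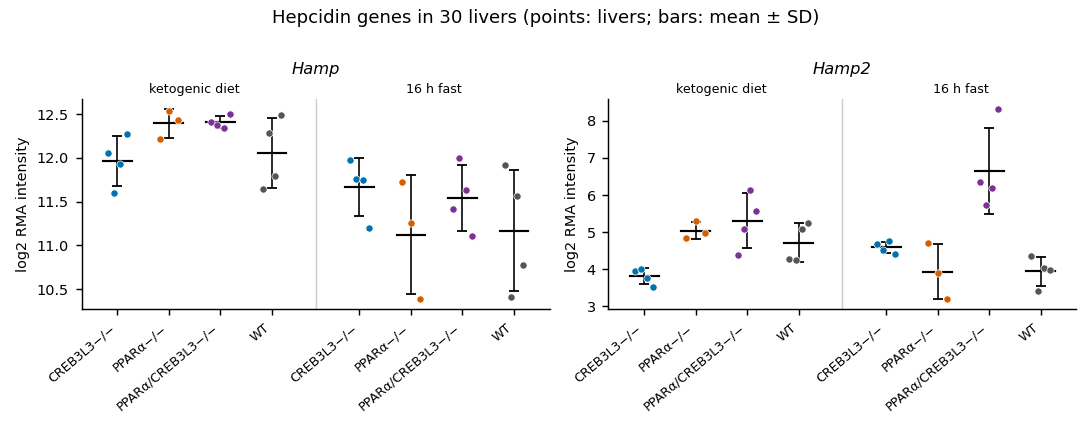
The log2 RMA intensity of Hamp and Hamp2 in every liver, by genotype, for the ketogenic diet and the 16 h fast (points are livers, bars the group mean ± SD, n = 3 or 4). Hamp overlaps between genotypes within each regimen, and the 4 fasted PPARα/CREB3L3-/- livers hold Hamp2 between 5.72 and 8.32, above all other fasted livers.

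Neither was Hamp called changed in the other knockouts. A probe set was called at P under 0.001 with a fold beyond 1.2, in limma. In ketogenic livers Hamp read 12.21, 12.54 and 12.43 in PPARα-/- livers and 12.41, 12.38, 12.35 and 12.51 in PPARα/CREB3L3-/- livers. The 4 values of the combined knockout were the closest together of any group (SD 0.07), whereas WT livers on the same diet had an SD of 0.40. After the fast Hamp read 11.72, 11.26 and 10.39 in PPARα-/- livers and 11.42, 12.00, 11.64 and 11.10 in PPARα/CREB3L3-/- livers. The difference from WT was 0.34 in PPARα-/- (95% interval -0.28 to 0.96) and 0.36 in PPARα/CREB3L3-/- livers (-0.22 to 0.93) on the ketogenic diet, and -0.05 (-0.67 to 0.57) and 0.37 (-0.20 to 0.94) in the same genotypes after the fast. Of the 6 comparisons of a knockout with WT, Hamp was called in 0 by limma and in 0 by the intensity-based moderated t-statistic (IBMT), and 0 had an unadjusted P under 0.05. The interaction, the CREB3L3 effect without PPARα minus that with PPARα, was 0.11 on the ketogenic diet (SE 0.41, adjusted p = 0.89) and -0.08 after the fast (SE 0.41, adjusted p = 0.98).

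Ordered by mean Hamp level, all 4 ketogenic groups (12.41 in PPARα/CREB3L3-/-, 12.39 in PPARα-/-, 12.05 in WT and 11.96 in CREB3L3-/-) stood above all 4 fasted groups (11.67 in CREB3L3-/-, 11.54 in PPARα/CREB3L3-/-, 11.17 in WT and 11.12 in PPARα-/-), although each group overlapped with its neighbours in this order. Hamp rose in ketogenic over fasted PPARα-/- livers by 1.27 (SE 0.32, 2.42-fold, adjusted p = 0.00594), and these groups did not overlap. The call was lost when PPARα-/- ketogenic replicate 2 or 3 or fasted replicate 2 or 3 was left out, with values of 1.201, 1.253, 1.339 and 0.904. The same difference was 0.87 in PPARα/CREB3L3-/- (SE 0.28, adjusted p = 0.0227), 0.88 in WT (SE 0.28, adjusted p = 0.0533) and 0.29 in CREB3L3-/- livers (SE 0.28, adjusted p = 0.445), none of them called. In WT it was called at 1.13 without WT fasted replicate 1. The WT difference taken from the CREB3L3-/- difference gave -0.59 (SE 0.39, adjusted p = 0.341), so a difference between these genotypes in the response of Hamp was not established.

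Hamp2 was the gene that stood out in the fasted combined knockout. It read 6.34, 5.72, 6.20 and 8.32 in PPARα/CREB3L3-/- livers, against 4.35, 3.41, 4.03 and 3.99 in WT livers. The single knockouts held 4.67, 4.52, 4.76 and 4.41 in CREB3L3-/- livers and 4.70, 3.91 and 3.21 in PPARα-/- livers, and neither was called against WT. Every combined knockout liver lay above every other fasted liver, and replicate 4 lay well above the other three. Hamp2 rose by 2.70 against WT (SE 0.41, adjusted p = 4.54e-05), by 2.71 against PPARα-/- (SE 0.44, adjusted p = 0.000843) and by 2.06 against CREB3L3-/- (SE 0.41, adjusted p = 0.00139). These calls stood with any array left out. Fasted WT livers read 3.41 to 4.35, against array medians of 4.22 to 4.38, and no detection calls were at hand, so Hamp2 is not shown to be above background there and no fold is given. In limma the interaction of 2.06 (SE 0.60, adjusted p = 0.17) was not called, so a more than additive change was not established.

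The ketogenic combined knockout had Hamp2 values of 4.40, 5.10, 6.14 and 5.58, against 4.29, 4.25, 5.10 and 5.26 in WT. The difference of 0.58 was not called (SE 0.41, 95% interval -0.26 to 1.43). CREB3L3-/- livers held 3.96, 4.01, 3.78 and 3.53, all below the WT livers, yet the difference of -0.90 missed the threshold (SE 0.41, adjusted p = 0.0991). PPARα-/- livers held 4.85, 5.29 and 4.99. Whether the probe sets of these close copies share signal was not tested. Across the 30 arrays Hamp and Hamp2 correlated at r = 0.21, a value that also carries the group differences.

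Bmp6 (probe set 10404686; chromosome 13, 38345716 to 38500314), the endothelial ligand that raises hepcidin as liver iron rises, was higher in both groups without PPARα on the ketogenic diet and was not called after the fast. It read 7.05, 6.55 and 6.69 in PPARα-/- livers and 6.45, 6.54, 6.37 and 6.40 in PPARα/CREB3L3-/- livers, against 5.63, 5.88, 5.31 and 6.01 in WT livers. CREB3L3-/- livers, at 5.58, 5.75, 5.94 and 6.07, were within the range of WT or just above it. Both groups without PPARα lay wholly above WT. Bmp6 rose by 1.06 in PPARα-/- (SE 0.15, 2.08-fold, adjusted p = 7.16e-06) and by 0.73 in PPARα/CREB3L3-/- livers (SE 0.14, 1.66-fold, adjusted p = 0.000238). It was also higher in the combined knockout than in CREB3L3-/- livers, by 0.60 (SE 0.14, adjusted p = 0.00118), a call lost at 0.52 without CREB3L3-/- ketogenic replicate 1.

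After the fast the Bmp6 values of all 15 livers lay between 5.78 and 6.46. The differences from WT were 0.30 in CREB3L3-/- (SE 0.14), 0.01 in PPARα-/- (SE 0.15) and 0.10 in PPARα/CREB3L3-/- livers (SE 0.14), none called. The PPARα-/- effect on the ketogenic diet exceeded that after the fast by 1.05 (SE 0.21, adjusted p = 0.00187). Within PPARα-/- livers Bmp6 rose by 0.73 on the ketogenic diet relative to the fast (SE 0.16, adjusted p = 0.00178), a call lost at 0.59 without ketogenic replicate 1 and at 0.61 without fasted replicate 3. The same difference was -0.32 in WT (SE 0.14, adjusted p = 0.189), -0.49 in CREB3L3-/- (SE 0.14, adjusted p = 0.00644) and 0.31 in PPARα/CREB3L3-/- livers (SE 0.14, adjusted p = 0.117), none called. The effect of 1.05 between regimens thus also carries the WT difference. Of 8 markers of sinusoidal endothelium, 2 were lower and 0 higher in ketogenic PPARα-/- livers and 6 were lower and 1 higher in ketogenic PPARα/CREB3L3-/- livers, with a summed level of 10.9 to 11.0 and of 10.4 to 11.0, against 11.3 to 11.5 in WT. Of all probe sets 4.81% were lower and 6.11% higher in the first of these groups, and 6.87% lower and 7.11% higher in the second. The part of these markers in the Bmp6 values was not tested.

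**Figure D2:**
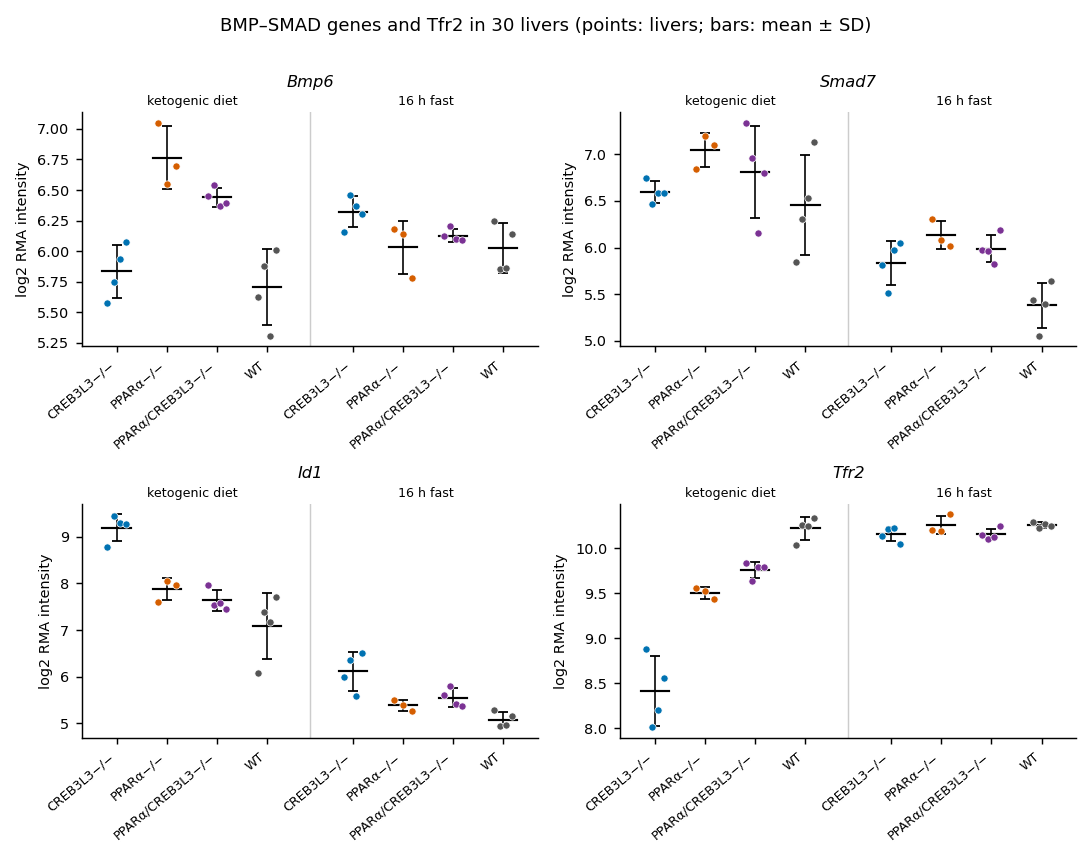
The log2 RMA intensity of Bmp6, Smad7, Id1 and Tfr2 in every liver, by genotype and regimen (points are livers, bars the group mean ± SD, n = 3 or 4). Among ketogenic livers Bmp6 is higher in both groups without PPARα than in WT, and Id1 is highest and Tfr2 lowest in CREB3L3-/- livers.

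Smad7 (probe set 10456745) and Id1 (probe set 10477169; chromosome 2, 152736251 to 152737410) are direct targets of BMP-SMAD signalling. SMAD7 acts back as an inhibitor of it, and ID1 is an inhibitor of basic helix-loop-helix factors. Smad7 read 6.75, 6.46, 6.59 and 6.59 in ketogenic CREB3L3-/- livers, 6.84, 7.20 and 7.10 in PPARα-/-, 7.34, 6.96, 6.16 and 6.79 in PPARα/CREB3L3-/- and 5.85, 6.31, 6.53 and 7.14 in WT livers. After the fast it read 5.81, 5.51, 5.97 and 6.05 in CREB3L3-/-, 6.30, 6.08 and 6.02 in PPARα-/-, 5.98, 5.97, 5.83 and 6.19 in PPARα/CREB3L3-/- and 5.44, 5.06, 5.39 and 5.64 in WT livers. The ketogenic livers lay above the fasted ones in every genotype but the combined knockout, where replicate 3 on the diet lay within the fasted range. Smad7 rose on the ketogenic diet relative to the fast by 1.07 in WT (SE 0.21, 2.1-fold, adjusted p = 0.00226), 0.91 in PPARα-/- (SE 0.24, adjusted p = 0.00955) and 0.82 in PPARα/CREB3L3-/- livers (SE 0.21, adjusted p = 0.00483). In limma the difference of 0.76 in CREB3L3-/- livers was not called (SE 0.21, adjusted p = 0.00518). The PPARα-/- call was lost without any 1 of its 6 arrays (0.83 to 1.01). The PPARα/CREB3L3-/- call was lost without ketogenic replicate 1, 2 or 4 (0.65, 0.77, 0.83) or fasted replicate 1, 2 or 3 (0.82, 0.81, 0.77).

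Against WT, Smad7 was not called in any of the 6 comparisons by limma or by IBMT, although 4 of them had an unadjusted P under 0.05. The largest of these differences was 0.75 in fasted PPARα-/- livers (SE 0.23, adjusted p = 0.0491), which were all above fasted WT. In ketogenic PPARα-/- livers Smad7 was called at 0.82 without WT ketogenic replicate 4.

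Id1 carried the largest regimen response of the 9 genes. It read 8.79, 9.45, 9.29 and 9.27 in ketogenic CREB3L3-/- livers, 7.61, 8.06 and 7.96 in PPARα-/-, 7.97, 7.54, 7.58 and 7.46 in PPARα/CREB3L3-/- and 6.08, 7.38, 7.18 and 7.70 in WT livers. After the fast it read 5.99, 6.35, 5.59 and 6.51 in CREB3L3-/-, 5.50, 5.40 and 5.26 in PPARα-/-, 5.61, 5.81, 5.42 and 5.36 in PPARα/CREB3L3-/- and 5.28, 4.94, 4.96 and 5.15 in WT livers. The regimens did not overlap in any genotype. Id1 rose on the ketogenic diet relative to the fast by 3.09 in CREB3L3-/- (SE 0.24, 8.49-fold, adjusted p = 4.84e-11), 2.49 in PPARα-/- (SE 0.27, adjusted p = 1.76e-07), 2.09 in PPARα/CREB3L3-/- (SE 0.24, adjusted p = 1.47e-07) and 2.01 in WT livers (SE 0.24, 4.01-fold, adjusted p = 8.65e-06).

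Id1 was higher in CREB3L3-/- livers in both regimens, with every CREB3L3-/- liver above every WT liver. The increase was 2.11 on the ketogenic diet (SE 0.24, 4.32-fold, adjusted p = 4.84e-08) and 1.03 after the fast (SE 0.24, 2.04-fold, adjusted p = 0.0243). The fasted call was lost at 0.95 without CREB3L3-/- replicate 2 and at 0.90 without replicate 4. In limma the effects in the 2 regimens differed by 1.08 (SE 0.33, adjusted p = 0.0195), which was not called. In ketogenic PPARα-/- livers the Id1 difference of 0.79 was not called (SE 0.26, adjusted p = 0.0317), but was at 0.998 without WT ketogenic replicate 4. With both factors missing, the difference from WT on the ketogenic diet was 0.55 and was not called (SE 0.24, adjusted p = 0.107). Id1 was lower in PPARα/CREB3L3-/- than in CREB3L3-/- livers by 1.56 on the log2 scale (difference -1.56, SE 0.24, adjusted p = 6.92e-06) and the interaction was -2.35 (SE 0.35, adjusted p = 8.36e-06). The ketogenic CREB3L3-/- livers also had the higher markers of cell division and stellate cells given above, and their part in the Id1 values was not tested.

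Tfr2 (probe set 10526630; chromosome 5, 137569822 to 137588081), the hepatocyte receptor that senses transferrin-bound iron and is needed for full hepcidin expression, fell in all 3 knockouts on the ketogenic diet. It read 8.88, 8.01, 8.20 and 8.56 in CREB3L3-/- livers, 9.55, 9.52 and 9.43 in PPARα-/- and 9.83, 9.63, 9.80 and 9.78 in PPARα/CREB3L3-/- livers, against 10.04, 10.26, 10.24 and 10.34 in WT livers. These 4 groups did not overlap. The fall was largest in CREB3L3-/- livers, at -1.81 (SE 0.11, 3.5-fold, adjusted p = 1.57e-12), followed by -0.72 in PPARα-/- (SE 0.12, adjusted p = 6.74e-05) and -0.46 in PPARα/CREB3L3-/- livers (SE 0.11, adjusted p = 0.00293). The last call was lost at -0.445, -0.45 and -0.42 without WT replicate 2, 3 or 4 and at -0.42 without PPARα/CREB3L3-/- replicate 2. It was also lost with the ketogenic arrays fitted alone (-0.46) and after repeated quantile normalization (-0.41).

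Tfr2 was close to WT in all fasted knockouts. The 15 values lay between 10.05 and 10.37, and the differences from WT were -0.10 in CREB3L3-/- (95% interval -0.33 to 0.13), -0.0018 in PPARα-/- (-0.25 to 0.25) and -0.11 in PPARα/CREB3L3-/- livers (-0.33 to 0.12). The effects of the single knockouts thus differed between regimens, by -1.71 for CREB3L3-/- (SE 0.16, adjusted p = 1.01e-08) and by -0.72 for PPARα-/- (SE 0.17, adjusted p = 0.00793). For PPARα/CREB3L3-/- the difference of -0.35 was not called (SE 0.16, adjusted p = 0.157). The PPARα-/- value was no longer called without PPARα-/- ketogenic replicate 3 (-0.68) or fasted replicate 3 (-0.66). The combined knockout lost less Tfr2 than the CREB3L3 knockout. Tfr2 was higher in PPARα/CREB3L3-/- than in CREB3L3-/- livers by 1.35 (SE 0.11, adjusted p = 3.2e-10), and the interaction was 2.07 (SE 0.16, adjusted p = 9.1e-10).

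In WT livers the Tfr2 difference between the ketogenic diet and the fast was not called (-0.04, 95% interval -0.27 to 0.19). Between ketogenic and fasted livers it fell by 1.74 in CREB3L3-/- (SE 0.11, adjusted p = 1.61e-12) and by 0.75 in PPARα-/- livers (SE 0.13, adjusted p = 0.000106). The difference of -0.39 in PPARα/CREB3L3-/- livers was not called (SE 0.11, adjusted p = 0.0102), though the regimens did not overlap. Hepatocyte markers were lower in the same livers, with 5 of 8 called in each of the 3 ketogenic knockouts. Of all probe sets 8.56% were lower in ketogenic CREB3L3-/-, 4.81% in PPARα-/- and 6.87% in PPARα/CREB3L3-/- livers. The summed level of the 8 markers was 15.1 to 15.5 in CREB3L3-/-, 15.5 to 15.6 in PPARα-/- and 15.5 to 15.7 in PPARα/CREB3L3-/- livers, against 15.7 to 15.8 in WT. Their mean log2 level was 12.14 in CREB3L3-/-, 12.43 in PPARα-/- and 12.49 in PPARα/CREB3L3-/- livers, against 12.72 in WT. The median change of the 8 markers was -0.57 in CREB3L3-/- livers, where Tfr2 changed by -1.81. Tfr2 changed less in the other knockouts, by -0.72 in PPARα-/- and -0.46 in PPARα/CREB3L3-/- livers. The part of these markers in the Tfr2 values was not tested in any genotype.

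Tfrc (probe set 10435075; chromosome 16, 32608896 to 32632794) encodes transferrin receptor 1, which brings transferrin-bound iron into cells and whose mRNA is stabilised when cellular iron is low. It read 7.15, 7.82, 8.12 and 7.91 in ketogenic CREB3L3-/- livers, against 6.49, 6.51, 6.76 and 6.89 in WT livers. PPARα-/- livers held 6.70, 6.74 and 7.26 and PPARα/CREB3L3-/- livers 6.52, 6.54, 6.68 and 6.71. All 4 CREB3L3-/- livers exceeded WT and the combined knockout. Tfrc rose by 1.09 over WT (SE 0.26, 2.12-fold, adjusted p = 0.0019) and was lower in PPARα/CREB3L3-/- than in CREB3L3-/- livers (-1.14, SE 0.26, adjusted p = 0.00128).

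The increase of Tfrc over WT missed the threshold without WT replicate 1 or 2 (1.03, 1.04) or CREB3L3-/- replicate 2, 3 or 4 (1.06, 0.96, 1.03). The difference from the combined knockout missed it without CREB3L3-/- replicate 3 (-1.02). The markers of cell division, higher in 7 of 7 in these same livers, were lower in 7 of 7 in the combined knockout relative to CREB3L3-/- livers (summed level 6.26 to 6.41, against 10.5 to 11.8). Of 3 measured erythroid markers, 1 was lower and 0 higher in ketogenic CREB3L3-/- livers than in WT (median -0.47). Their summed level was 6.19 to 7.19 in CREB3L3-/- livers, against 8.11 to 8.65 in WT. Between the ketogenic combined knockout and CREB3L3-/- livers 0 of the 3 were called (median -0.23). The part of either marker list in the Tfrc values was not tested. Fasted Tfrc values spread from 6.22 to 7.62, with differences from WT of 0.15 (SE 0.26) in CREB3L3-/-, -0.13 (SE 0.29) in PPARα-/- and 0.06 (SE 0.26) in PPARα/CREB3L3-/- livers.

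Slc40a1 (probe set 10354374; chromosome 1, 45908070 to 45926532), which encodes ferroportin, was higher after the fast when PPARα was missing. Fasted livers read 10.07, 10.43 and 10.27 in PPARα-/- and 10.31, 10.96, 10.52 and 10.21 in PPARα/CREB3L3-/- mice, against 9.19, 9.26, 9.40 and 9.71 in WT mice. CREB3L3-/- livers lay within the WT range, at 9.48, 9.51, 9.50 and 9.53. Every liver without PPARα exceeded every fasted liver with it. Slc40a1 rose by 0.87 in PPARα-/- (SE 0.20, 1.82-fold, adjusted p = 0.00799) and by 1.11 in PPARα/CREB3L3-/- livers (SE 0.18, 2.16-fold, adjusted p = 0.000145), and was higher in the combined knockout than in CREB3L3-/- livers (0.997, SE 0.18, adjusted p = 0.000659). The PPARα-/- call was lost at 0.78 without PPARα-/- replicate 2 and at 0.86 without replicate 3.

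**Figure D3:**
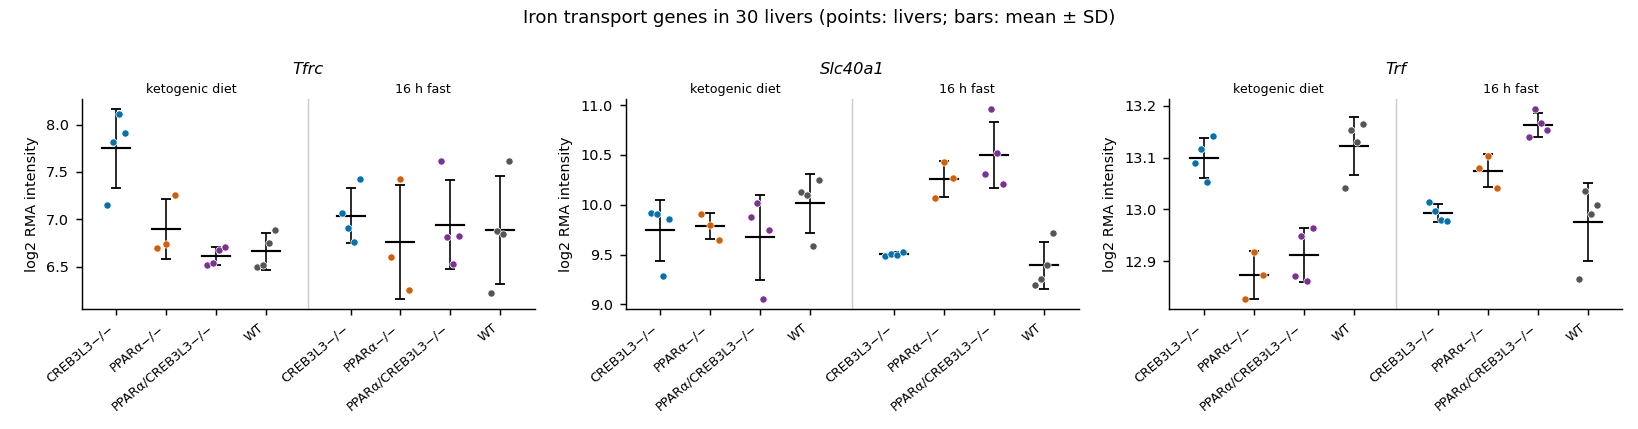
The log2 RMA intensity of Tfrc, Slc40a1 and Trf in every liver, by genotype and regimen (points are livers, bars the group mean ± SD, n = 3 or 4; each axis has its own range). Tfrc is highest in ketogenic CREB3L3-/- livers, fasted livers without PPARα hold more Slc40a1 than the other fasted livers, and Trf spans 12.83 to 13.19 in all 30 livers.

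In ketogenic livers Slc40a1 did not follow this order. It read 9.92, 9.91, 9.29 and 9.85 in CREB3L3-/-, 9.91, 9.80 and 9.65 in PPARα-/- and 9.88, 10.01, 9.05 and 9.74 in PPARα/CREB3L3-/- livers, against 10.13, 10.10, 9.58 and 10.25 in WT livers. Replicate 3 was the lowest of its group in all 4 genotypes. Differences from WT were -0.27 in CREB3L3-/- (SE 0.18), -0.23 in PPARα-/- (SE 0.20) and -0.34 in PPARα/CREB3L3-/- livers (SE 0.18), none called. The knockout effect on the ketogenic diet minus that after the fast was -1.09 for PPARα-/- (SE 0.28, adjusted p = 0.0152) and -1.45 for PPARα/CREB3L3-/- livers (SE 0.26, adjusted p = 0.000279). The PPARα-/- value was no longer called in 10 of 14 fits that left out 1 array (-1.01 to -1.10 in those 10): WT replicate 1, 2 or 4 on the diet, WT replicate 1, 2 or 3 after the fast, and PPARα-/- replicate 2 or 3 in either regimen. Between regimens Slc40a1 fell by 0.83 on the ketogenic diet in PPARα/CREB3L3-/- livers (SE 0.18, adjusted p = 0.00128), a call lost at -0.62 without ketogenic replicate 3 and at -0.67 without fasted replicate 2. The same difference was 0.62 in WT (SE 0.18, adjusted p = 0.0385), -0.47 in PPARα-/- (SE 0.21, adjusted p = 0.147) and 0.24 in CREB3L3-/- livers (SE 0.18), none called. The effects between regimens thus also carry the WT difference.

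Macrophages export iron through ferroportin. In fasted livers the summed level of 8 Kupffer cell and macrophage markers was 11.3 to 11.6 in PPARα-/- and 11.4 to 11.8 in PPARα/CREB3L3-/- livers, against 11.2 to 11.7 in WT. In limma 0 of the 8 were called in either comparison, and an unadjusted P under 0.05 was found for 0 of them in PPARα-/- and for 1 in PPARα/CREB3L3-/- livers. On the ketogenic diet 5 of the 8 were lower than in WT in PPARα-/- (median -1.20) and 5 in PPARα/CREB3L3-/- livers (median -0.99), and the summed level was 10.4 to 10.8 in PPARα-/- and 10.3 to 10.9 in PPARα/CREB3L3-/- livers, against 11.3 to 11.9 in WT. The effect on the ketogenic diet minus that after the fast was lower for 4 of the 8 with PPARα-/- (median -1.105) and for 5 with PPARα/CREB3L3-/- (median -0.974), in the same direction as Slc40a1. Of all probe sets 4.81% were lower in ketogenic PPARα-/- and 6.87% in ketogenic PPARα/CREB3L3-/- livers than in WT. For the effects between regimens 4.83% and 8.26% of all probe sets were called in either direction. The part of these markers in the Slc40a1 differences between regimens was not tested.

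Trf (probe set 10596148; chromosome 9, 103208876 to 103230286), the plasma iron carrier made by hepatocytes, moved within a narrow range. Its mean of 13.03 stood at the 99.9th percentile of all probe sets, and the highest value on any array was 13.68. Compression of differences at this level was not tested. On the ketogenic diet it read 12.83, 12.92 and 12.87 in PPARα-/- and 12.87, 12.95, 12.86 and 12.96 in PPARα/CREB3L3-/- livers, against 13.04, 13.15, 13.13 and 13.16 in WT livers. After the fast the direction was the opposite, with 13.08, 13.10 and 13.04 in PPARα-/- and 13.14, 13.19, 13.17 and 13.15 in PPARα/CREB3L3-/- livers, against 12.87, 13.04, 12.99 and 13.01 in WT livers. The groups did not overlap in these 4 comparisons. Differences from WT were -0.25 in PPARα-/- and -0.21 in PPARα/CREB3L3-/- livers on the ketogenic diet, and 0.10 in PPARα-/- and 0.19 in PPARα/CREB3L3-/- livers after the fast, all below the 1.2-fold criterion. The ketogenic PPARα-/- difference was called without WT replicate 1 (-0.28) or PPARα-/- replicate 2 (-0.27). The change of these effects between regimens was called, at -0.35 for PPARα-/- (SE 0.06, 1.27-fold, adjusted p = 0.000215) and -0.40 for PPARα/CREB3L3-/- livers (SE 0.05, 1.32-fold, adjusted p = 6.33e-06). Ketogenic minus fasted Trf was 0.15 in WT, -0.20 in PPARα-/- and -0.25 in PPARα/CREB3L3-/- livers (SE 0.04 each), so these changes also carry the WT difference. CREB3L3-/- livers differed from WT by -0.02 on the ketogenic diet and by 0.02 after the fast (SE 0.04 each).

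Counted over the 9 genes, the share called was read against that of all probe sets. In ketogenic CREB3L3-/- livers 3 of 9 were called against WT (21.4% of all probe sets), 2 higher (12.8%) and 1 lower (8.56%). In ketogenic PPARα-/- livers 2 were called (10.9%), 1 higher (6.11%) and 1 lower (4.81%), and in ketogenic PPARα/CREB3L3-/- livers 2 were called (14%), 1 higher (7.11%) and 1 lower (6.87%). Among fasted livers 1 of 9 was called in CREB3L3-/- (1.39%), 1 higher (0.787%) and 0 lower (0.599%). The fasted PPARα-/- livers had 1 called (4%), 1 higher (2.23%) and 0 lower (1.77%), and the fasted PPARα/CREB3L3-/- livers had 2 called (6.98%), 2 higher (4.19%) and 0 lower (2.79%). With 9 genes a single gene is a large share, so the counts are given as descriptions. The comparisons within a regimen share the WT livers.

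The median log2 change of the 9 genes in ketogenic livers was -0.02 in CREB3L3-/-, 0.32 in PPARα-/- and 0.36 in PPARα/CREB3L3-/-, against -0.06, 0.0057 and 0.014 over all probe sets in these comparisons. In fasted livers it was 0.30 in CREB3L3-/-, 0.0067 in PPARα-/- and 0.37 in PPARα/CREB3L3-/-, against 0.0063, -0.0018 and -0.02 over all probe sets. The ketogenic combined knockout had 4 genes called against CREB3L3-/- (20.4%), 2 higher (8.72%) and 2 lower (11.7%), and 0 against PPARα-/- (2.42%), where 2 genes had an unadjusted P under 0.05 in limma and IBMT called 0. The fasted combined knockout had 2 genes called against CREB3L3-/- (5.28%), 2 higher (2.91%) and 0 lower (2.37%), and 1 against PPARα-/- (1.67%), 1 higher (0.821%) and 0 lower (0.847%).

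Between the ketogenic diet and the fast, 2 of 9 genes were called in CREB3L3-/- livers (25.4%), 1 higher (14.3%) and 1 lower (11.1%). In PPARα-/- livers 5 were called (10.2%), 4 higher (5.74%) and 1 lower (4.46%), in PPARα/CREB3L3-/- livers 3 were called (14.5%), 2 higher (7.42%) and 1 lower (7.09%), and in WT livers 2 were called (4.25%), Smad7 and Id1, both higher (2.53%, against 1.72% lower). Of the tests of a difference between effects, the interaction called 2 genes on the ketogenic diet (15.9% of all probe sets) and 0 after the fast (0.762%), where 2 had an unadjusted P under 0.05 in limma and IBMT called 0. The knockout effects differed between regimens for 1 gene with CREB3L3-/- (13.8%), 4 with PPARα-/- (4.83%) and 2 with PPARα/CREB3L3-/- livers (8.26%).

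**Figure D4:**
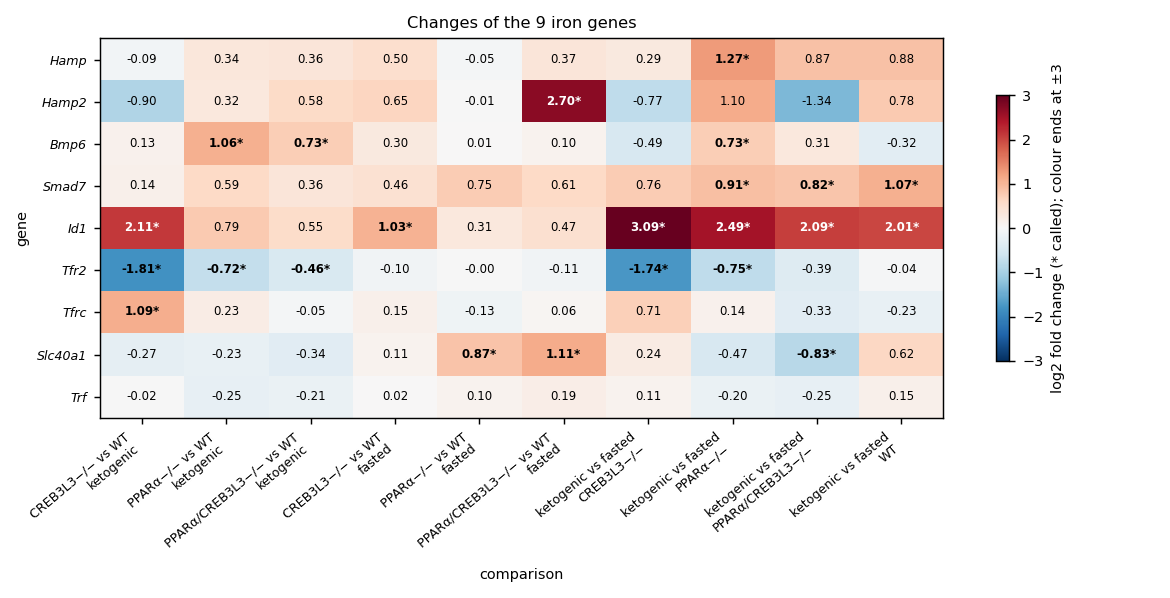
Log2 fold changes of the 9 genes (rows) in the 6 comparisons of a knockout with WT and the 4 comparisons of the ketogenic diet with the fast (columns), with red for higher, blue for lower and an asterisk where called. Hamp is called in 0 of the 6 knockout comparisons, Tfr2 in all 3 ketogenic ones and Id1 in all 4 regimen comparisons.

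The other genes of hepcidin control and iron handling were taken from 10 lists with 107 measured genes. In ketogenic livers 12 were higher and 27 lower in CREB3L3-/-, 9 higher and 21 lower in PPARα-/-, and 7 higher and 20 lower in PPARα/CREB3L3-/- livers, relative to WT. In fasted livers 2 were higher and 0 lower in CREB3L3-/-, 12 higher and 7 lower in PPARα-/-, and 20 higher and 9 lower in PPARα/CREB3L3-/- livers. The share of listed genes called was 36.4% in CREB3L3-/-, 28% in PPARα-/- and 25.2% in PPARα/CREB3L3-/- livers on the ketogenic diet, and 1.87% in CREB3L3-/-, 17.8% in PPARα-/- and 27.1% in PPARα/CREB3L3-/- livers after the fast. Over all probe sets it was 21.4% in CREB3L3-/-, 10.9% in PPARα-/- and 14% in PPARα/CREB3L3-/- livers on the ketogenic diet. After the fast it was 1.39% in CREB3L3-/-, 4% in PPARα-/- and 6.98% in PPARα/CREB3L3-/- livers. The listed genes in fasted CREB3L3-/- livers were thus near the share of all. All probe sets include 12457 with no symbol listed and were not matched to the listed genes in intensity. The higher shares of the listed genes are therefore descriptions. The counts of each list are read against the share of all probe sets called on the ketogenic diet, 12.8% higher and 8.56% lower in CREB3L3-/-, 6.11% higher and 4.81% lower in PPARα-/- and 7.11% higher and 6.87% lower in PPARα/CREB3L3-/- livers, and in fasted livers 2.23% higher and 1.77% lower in PPARα-/- and 4.19% higher and 2.79% lower in PPARα/CREB3L3-/- livers.

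In the receptor complex upstream of hepcidin, Tmprss6, the protease that cuts hemojuvelin and so holds hepcidin down, fell with Tfr2 in all 3 ketogenic knockouts. Its change was -1.73 in CREB3L3-/- (SE 0.13, adjusted p = 2.76e-11), -0.55 in PPARα-/- (SE 0.14) and -0.65 in PPARα/CREB3L3-/- livers (SE 0.13). Hjv, which encodes hemojuvelin, the BMP co-receptor, was higher in both ketogenic groups without PPARα (0.67, SE 0.16, in PPARα-/- and 0.85, SE 0.15, in PPARα/CREB3L3-/-) and in the fasted combined knockout (0.68, SE 0.15). Fkbp1a, whose product FKBP12 binds and restrains the type I BMP receptor ALK2, rose by 1.17 in ketogenic CREB3L3-/- (SE 0.11) and by 0.54 in PPARα-/- livers (SE 0.12). Of the 12 measured genes of this list 1 was higher and 4 lower in ketogenic CREB3L3-/-, 2 higher and 1 lower in PPARα-/-, and 1 higher and 2 lower in PPARα/CREB3L3-/- livers. Their median changes were 0.02, -0.06 and 0.08.

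Among 11 BMP ligands and SMADs, Smad9, which encodes a BMP-responsive SMAD, fell by 1.52 in fasted PPARα-/- (SE 0.30) and by 2.08 in fasted PPARα/CREB3L3-/- livers (SE 0.28), and by 1.29 in ketogenic CREB3L3-/- livers (SE 0.28). Smad2, of the TGF-β branch, rose by 0.34 to 0.43 in the 5 comparisons other than fasted CREB3L3-/- against WT. Bmp4 rose by 1.05 in the fasted combined knockout (SE 0.22). Of the 9 other BMP targets, Id3, a relative of Id1, was called in all 3 fasted knockouts, at 1.52 in CREB3L3-/- (SE 0.25, adjusted p = 0.00116), 1.27 in PPARα-/- (SE 0.27, adjusted p = 0.00395) and 1.61 in PPARα/CREB3L3-/- livers (SE 0.25, adjusted p = 5.53e-05). In ketogenic livers the Id3 differences were 0.81 in CREB3L3-/-, 0.88 in PPARα-/- and 0.48 in PPARα/CREB3L3-/-, none called. Hes1, a Notch and BMP target, fell by 1.07 in the ketogenic combined knockout (SE 0.24).

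On the inflammatory side, Il6ra, the interleukin-6 receptor, fell by 1.57 in ketogenic CREB3L3-/- (SE 0.18) and by 0.82 in PPARα-/- livers (SE 0.19). Il22ra1, the receptor chain for interleukin-22, was higher in 5 of the 6 comparisons with WT, by 0.66 to 1.31, and differed by 0.29 in fasted CREB3L3-/- livers, which was not called. Of 14 acute phase genes 1 was higher and 7 lower in ketogenic CREB3L3-/-, 0 higher and 9 lower in PPARα-/-, and 1 higher and 5 lower in PPARα/CREB3L3-/- livers, with medians of -0.72, -0.77 and -0.33. Saa4, a constitutive serum amyloid A, fell by 2.41 in CREB3L3-/- (SE 0.27), fell by 2.81 in PPARα-/- (SE 0.29) and fell by 3.07 in PPARα/CREB3L3-/- livers (SE 0.27). After the fast 4 acute phase genes were higher in PPARα-/- and 5 in PPARα/CREB3L3-/- livers, and none was lower. Fgb of this list is also among the hepatocyte markers.

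**Figure D5:**
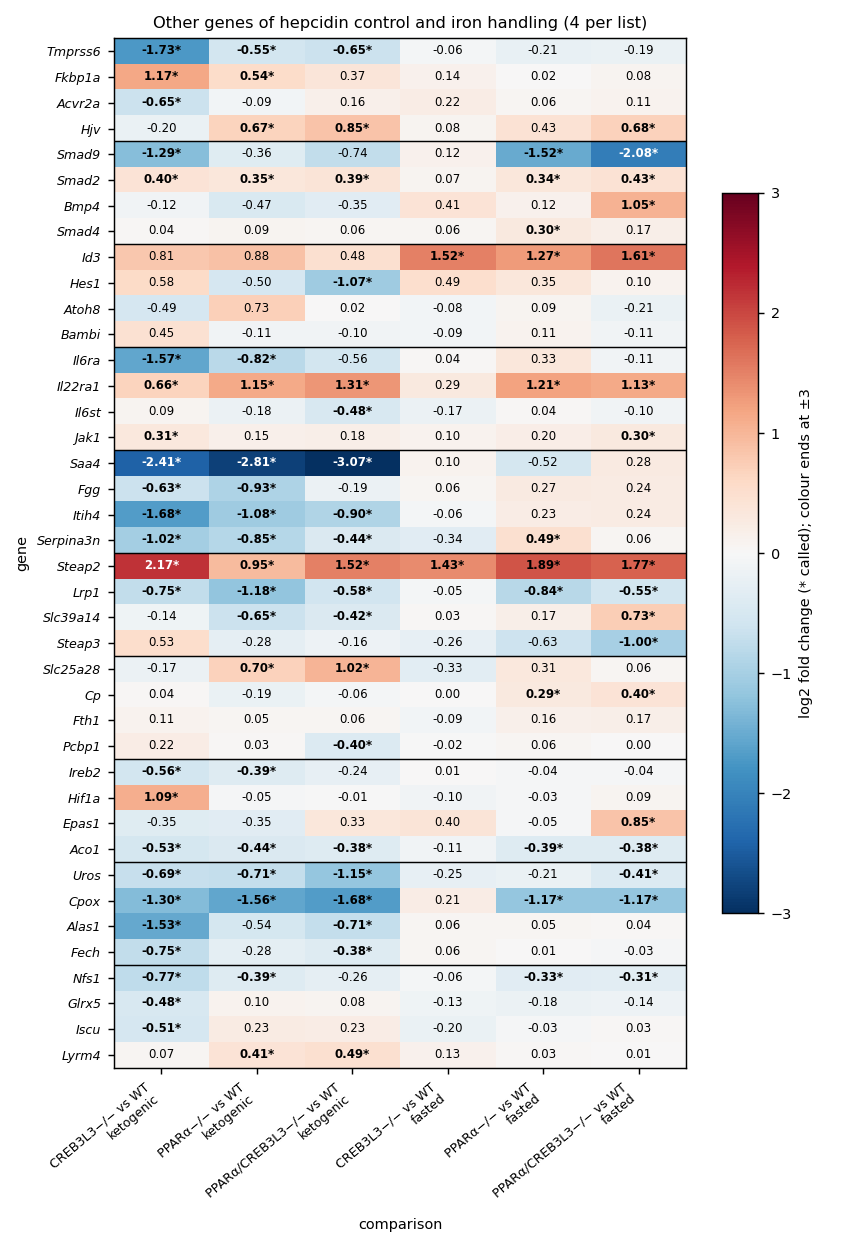
Log2 fold changes of 40 further genes (rows, 4 for each of 10 lists divided by lines, chosen by lowest P) in the 6 comparisons of a knockout with WT (columns), with red for higher, blue for lower and an asterisk where called. Tmprss6, Saa4, Itih4, Uros and Cpox are lower in all 3 ketogenic knockouts, Steap2 is higher in all 6 comparisons, and fasted CREB3L3-/- livers have calls for Id3 and Steap2 alone among the 40.

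In iron uptake, Steap2, a metalloreductase, was higher in all 6 comparisons, from 0.95 in ketogenic PPARα-/- (SE 0.23) to 2.17 in ketogenic CREB3L3-/- livers (SE 0.22). Lrp1, an endocytic receptor that clears heme-hemopexin among many ligands, fell in 5 of them by 0.55 to 1.18 and differed by -0.05 in fasted CREB3L3-/- livers. Slc39a14, the importer of iron not bound to transferrin, changed with the regimen. It was 0.73 higher in the fasted combined knockout (SE 0.10) but lower on the ketogenic diet in PPARα-/- (-0.65, SE 0.11) and PPARα/CREB3L3-/- livers (-0.42, SE 0.10).

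In storage and export, Fth1, the ferritin heavy chain, differed from WT by -0.09 to 0.17. It was higher by 0.16 in fasted PPARα-/- (SE 0.04, adjusted p = 0.00617) and by 0.17 in fasted PPARα/CREB3L3-/- livers (SE 0.03, adjusted p = 0.000687), which passed the P threshold and missed only the 1.2-fold criterion. Cp, the ferroxidase ceruloplasmin that works beside ferroportin, rose in the same fasted groups as Slc40a1, by 0.29 in PPARα-/- (SE 0.06) and 0.40 in PPARα/CREB3L3-/- livers (SE 0.05). Slc25a28, a mitochondrial iron importer, rose by 0.70 (SE 0.13) and 1.02 (SE 0.12) in these genotypes on the ketogenic diet. Of the iron regulatory proteins, which stabilise Tfrc mRNA and block ferritin translation in low iron, Aco1 fell in 5 of the 6 comparisons by 0.38 to 0.53, and Ireb2 fell by 0.56 in ketogenic CREB3L3-/- (SE 0.07) and 0.39 in PPARα-/- livers (SE 0.07).

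The list of heme synthesis and breakdown, which also holds heme transporters, had 4 genes higher and 6 lower of 14 in ketogenic CREB3L3-/- livers and a median of -0.48, against -0.06 over all probe sets. Alas1, the rate-limiting enzyme of heme synthesis, fell by 1.53 there (SE 0.15, adjusted p = 5.82e-09) and by 0.71 in PPARα/CREB3L3-/- livers (SE 0.15). Fech, which inserts iron into the ring, fell by 0.75 (SE 0.08) and 0.38 (SE 0.08) in the same groups. Cpox fell in all comparisons but fasted CREB3L3-/- against WT, by 1.17 to 1.68. In iron-sulfur cluster assembly, ketogenic CREB3L3-/- livers had 4 of 10 genes lower and none higher, among them Nfs1, the sulfur donor (-0.77, SE 0.07), Iscu, the scaffold (-0.51, SE 0.08), and Glrx5 (-0.48, SE 0.07).

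The 5 probe sets whose values were most like those of Hamp over the 30 arrays, out of 12104 considered, were Snora69 (r = 0.78), Abraxas1 (0.74), Rps27l (0.74), E130309D02Rik (0.73) and Snord73a (0.73). These correlations carry the group differences and rest on arrays that were normalized together. Among the 9 genes, Hamp correlated best over the 30 arrays with Smad7 (r = 0.69) and Id1 (0.64), which fell to 0.27 and 0.30 after the group means were taken out. Within groups its best match was Bmp6, at 0.43, against 0.39 over the 30 arrays. Id1 and Tfr2 ran in opposite directions over the arrays (r = -0.84) but not within groups (-0.10).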

How the data were processed

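Liver RNA of 30 mice was hybridized to Affymetrix Mouse Gene 1.1 ST arrays, 1 liver per array. The deposited log2 values were made by the authors, by RMA in AffyPLM with versions not stated. A remapped chip definition is named in the methods, but the deposited identifiers are the manufacturer's, and they were used unchanged. RMA compresses large differences, and no detection calls came with the values. The number of arrays, 3 or 4 per group and each from its own mouse, limits the precision, and scan batches are unknown here. Of the probe sets 21218 have 1 gene symbol in the platform annotation, 1881 several and 12457 none listed. Positions and promoters are from RefSeq (GRCm38.p6).

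All arrays entered 1 limma fit (limma 3.58.1, R 4.3.3, data.table version 1.17.8) of 8 group means with a trend on intensity (22 residual degrees of freedom, 3.47 prior), from which 19 comparisons were taken. Benjamini-Hochberg adjustment ran across the 35556 probe sets. A call needed P under 0.001, the threshold of the authors' methods, and a fold beyond 1.2. SE is the moderated standard error. Marker levels are the log2 of summed linear intensities. The fit was tested on simulated data. The 9 genes, 10 pathway lists and 7 marker lists (157 of 171 genes matched) were chosen with earlier results of these data known. The text names all 9 genes, up to 4 genes per pathway list by lowest P against WT, the 5 probe sets most like Hamp, and Creb3l3. Ppara was added after its values were seen. Alternatives covered the arrays fitted, variance model (IBMT among them), normalization, dim probe sets, the threshold, a replicate block, array weights and leaving out each array. Python 3.11.15, Biopython 1.88 and matplotlib 3.10.9 were used for sequences and figures.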

Additional observations from a re-analysis of the deposited data

Results flagged for a closer look

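In ketogenic CREB3L3-/- livers, Slc40a1 of replicate 3 lay apart from the other three, at 9.287 (gap over range 0.893). It was the only such value in 54 sets of 4 values, 1 set for each gene in each group of 4 livers. About 1 in 20 of these sets is expected by chance, and they reuse the same livers.

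The other results are differences between effects. The PPARα-/- effect on the ketogenic diet minus that after the fast was 1.05 for Bmp6 (adjusted p = 0.00187), -0.7162 for Tfr2 (adjusted p = 0.00793), -1.095 for Slc40a1 (adjusted p = 0.0152) and -0.3492 for Trf (adjusted p = 0.000215). For PPARα/CREB3L3-/- it was -1.452 for Slc40a1 (adjusted p = 0.000279) and -0.3989 for Trf (adjusted p = 6.33e-06), and for CREB3L3-/- it was -1.706 for Tfr2 (adjusted p = 1.01e-08). The interaction of both ablations on the ketogenic diet was -2.354 for Id1 (adjusted p = 8.36e-06) and 2.067 for Tfr2 (adjusted p = 9.1e-10).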

How the results depend on the processing

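Hamp stayed uncalled in all 6 comparisons with WT under every alternative, though its sign turned in some. Its difference between PPARα/CREB3L3-/- and PPARα-/- on the ketogenic diet, 0.01716, turned to -0.003474 with array weights, -0.02266 with median centring and -0.0004494 with repeated quantile normalization. Its PPARα/CREB3L3-/- effect on the diet minus that after the fast turned to 0.09268 with the last of these. By adjusted p under 0.05 alone, Hamp was called at 0.8707 between regimens in PPARα/CREB3L3-/- livers. The cause was not tested.

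With 1 array left out, the fasted Hamp differences from WT ranged from 0.2484 to 0.7489 for CREB3L3-/- (0.50 as reported) and from 0.1189 to 0.6194 for PPARα/CREB3L3-/- (0.37 as reported), both uncalled throughout. Other fasted Hamp differences ranged from -0.3499 to 0.32 for PPARα-/- against WT, from -0.288 to 0.01576 for PPARα/CREB3L3-/- against CREB3L3-/- and from -0.4495 to 0.2204 for the interaction. The ketogenic ones ranged from -0.2286 to 0.05453 for CREB3L3-/- against WT, from -0.07353 to 0.08874 for PPARα/CREB3L3-/- against PPARα-/- and from -0.03737 to 0.2458 for the interaction. Ketogenic minus fasted Hamp ranged from 0.904 to 1.574 in PPARα-/- and from 0.6331 to 1.134 in WT livers, and the PPARα/CREB3L3-/- effect between regimens from -0.2628 to 0.2377. Uncalled differences from WT of other genes whose sign turned in such fits were, after the fast, those of PPARα-/- for Hamp2 (-0.3858 to 0.3588), Bmp6 (-0.06581 to 0.1313), Tfr2 (-0.06108 to 0.02876) and Tfrc (-0.4627 to 0.1244), of CREB3L3-/- for Tfrc (-0.07272 to 0.39) and Trf (-0.01996 to 0.03682) and of PPARα/CREB3L3-/- for Tfrc (-0.1689 to 0.2958). On the ketogenic diet they were those of CREB3L3-/- for Bmp6 (-0.004037 to 0.2294) and Smad7 (-0.06016 to 0.3687) and of PPARα/CREB3L3-/- for Tfrc (-0.1099 to 0.02304).

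Other uncalled differences from WT that turned were Bmp6 in fasted PPARα-/- (-0.02018 with median centring, -0.05093 with repeated quantile normalization) and ketogenic CREB3L3-/- livers (-0.008487 with repeated quantile normalization), and with median centring Tfrc in fasted PPARα/CREB3L3-/- (-0.003322) and Trf in fasted CREB3L3-/- livers (-0.02796). A replicate block turned Hamp2 (0.108) and Tfr2 (0.01249) in fasted PPARα-/- livers and changed no call of the 9 genes. Arrays of the same number in different groups had a median correlation of deviations of 0.0124, against -0.00438 for other pairs, so the numbers were not taken as pairs. Smad7 in fasted PPARα-/- livers was called with array weights (0.7855), and at 0.7522 with 1 regimen fitted alone or by adjusted p. Smad7 was called at 0.6081 in fasted PPARα/CREB3L3-/- livers with 1 regimen alone, and its rise between regimens in PPARα-/- livers was lost with no intensity trend (0.9104) and with repeated quantile normalization (0.8992). The Bmp6 difference between PPARα/CREB3L3-/- and CREB3L3-/- on the ketogenic diet was lost with 1 regimen alone (0.6047). Trf was called with median centring in ketogenic PPARα-/- (-0.2674) and PPARα/CREB3L3-/- livers (-0.2681). By adjusted p alone the probe sets called were 60 (271 as reported) for the fasted interaction and 8334 (5160 as reported) for the combined knockout between regimens.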

Other observations

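Of 10 iron-sulfur cluster assembly genes 7 were called higher and 0 lower in the combined knockout than in CREB3L3-/- livers on the ketogenic diet, with a median of 0.46, against 0.09 over all probe sets. Of all probe sets 8.72% were higher and 11.7% lower in this comparison. Of 14 acute phase genes 4 were called higher and 0 lower. In the receptor complex upstream of hepcidin 5 of 12 genes were higher and 2 lower.

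In WT livers 8 of the 107 listed genes were higher and 3 lower on the ketogenic diet than after the fast, against 2.53% of all probe sets higher and 1.72% lower. Id3 rose by 1.44 (SE 0.25, adjusted p = 0.000671) and Hes1 by 1.13 (SE 0.24, adjusted p = 0.00474), while Hjv fell by 0.57 (SE 0.15, adjusted p = 0.0172) and Ireb2 by 0.41 (SE 0.07, adjusted p = 0.000537). Steap2 rose by 1.45 (SE 0.22, adjusted p = 0.000161). Ketogenic and fasted mice also differ in whether they had food.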
